A study of Homo sapiens with 10 samples.

Results

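The MHC class II genes, the gene of their associated invariant chain and the gene of their master regulator were followed in RNA-Seq libraries of an acute myeloid leukemia (AML) cell line with and without a knockout of IRF8. The set holds 10 genes, taken as the rows of the table of normalized counts that carry the symbols HLA-DRA, HLA-DRB1, HLA-DPA1, HLA-DPB1, HLA-DQA1, HLA-DQB1, HLA-DMA, HLA-DMB, CD74 and CIITA, of 19590 genes in all. All 10 passed the filter on low values described further on. The HLA genes lie on chromosome 6, CD74 on chromosome 5 and CIITA on chromosome 16.

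The cells were MV4-11, an established human AML line that carries an internal tandem duplication in FLT3. The control group consisted of 4 libraries of MV4-11 cells infected with the control vector, and the IRF8 KO group of 4 libraries of MV4-11 cells in which IRF8, a transcription factor of the interferon regulatory factor family, had been targeted with CRISPR-Cas9. The knockout cells were clones, grown by limiting dilution after lentiviral infection and puromycin selection and made with 1 of 2 guide RNAs, and the sources used here do not say which clone each library came from. A difference between clones and an effect of the knockout can therefore not be told apart within the IRF8 KO group. Cloning is not described for the control cells. An effect of cloning and an effect of the knockout can then not be told apart between the groups either. The labels number the libraries of each group from 1 to 4 but do not say whether these came from separate cultures, so p-values measure the spread between the libraries, which may be technical.

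MHC class II molecules are pairs of an alpha and a beta chain that display peptides of endocytosed proteins to CD4+ T cells, and they are made by dendritic cells, B cells, macrophages and some leukemia cells. HLA-DR, HLA-DP and HLA-DQ present the peptides, CD74 (the invariant chain) fills their groove during assembly, and HLA-DM exchanges the remnant of CD74 for a peptide. Their promoters share an X box and a Y box, which are occupied by the RFX complex, CREB and NF-Y, and these factors recruit CIITA, a co-activator that binds no DNA itself and without which class II genes are hardly transcribed.

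To show the promoter elements that these genes have in common, the RefSeq promoter windows of assembly GRCh38.p14, from 250 bases before to 50 bases after the start of a gene, were searched on both strands. Of the 10 genes, 8 have a window in the table, and HLA-DRA and CIITA were not matched. With HLA-DPA1 in 2 windows, 9 windows were searched. The following stretches are written 5′ to 3′ on the strand of the gene, which is the minus strand in each, with the first run of capitals marking a match to a loose form of the X box, in which the third, the fourth and the seventh base may be any, and the second run marking the Y box letters GATTGG.
HLA-DRB1, chr6:32589882-32589935: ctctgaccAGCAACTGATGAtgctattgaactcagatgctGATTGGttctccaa
HLA-DQB1, chr6:32666733-32666786: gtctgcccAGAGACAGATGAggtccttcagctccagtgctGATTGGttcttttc
HLA-DMA, chr6:32953164-32953218: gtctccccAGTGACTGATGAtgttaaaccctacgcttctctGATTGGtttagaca
HLA-DMB, chr6:32941079-32941124: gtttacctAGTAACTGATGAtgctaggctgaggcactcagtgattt

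The X box match starts 79 bases before the gene start in HLA-DRB1, 121 in HLA-DQB1, 113 in HLA-DMA and 88 in HLA-DMB. The Y box letters follow after 20 bases in HLA-DRB1 and HLA-DQB1 and after 21 in HLA-DMA. In HLA-DMB the 6 letters of the Y box are found only on the other strand. This loose form of the X box was written after the windows had been looked at. It matched 4 of the 8 genes, against 0.262% of all 35116 windows, and both boxes on the strand of the gene were found in 6 windows of all genes, 3 of them those of HLA-DRB1, HLA-DQB1 and HLA-DMA. A stricter form of the X box, set down earlier, matched 0 of the 8 genes and 0.0142% of all windows. GATTGG on either strand matched 5 of the 8 genes and 15.1% of all windows. The composite element of ETS and IRF factors and the core of the interferon-stimulated response element matched 0 of the 8 genes, against 2.82% and 3.57% of all windows, which says only that the letters searched are not in these windows. Of the 4 genes shown, HLA-DRB1 and HLA-DMB were called lower in the knockout, and HLA-DQB1 and HLA-DMA were not called.

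The deposited values, called normalized counts here, are numbers of reads per gene that the authors scaled by 1 size factor per library. The libraries held between 39560072 and 65519047 recovered reads. limma was fitted to log2(normalized count + 1), after genes averaging under 10 normalized counts had been set aside, which kept 13110 genes, and a gene was called at a Benjamini-Hochberg adjusted p below 0.05. A log2 fold change on this scale is IRF8 KO minus control and is too small for genes with few counts. Errors given with ± are standard deviations over the 4 libraries of a group. Exact permutation tests of 4 against 4 values are two-sided and cannot go below 0.0286, which is their value for each gene whose groups do not overlap.

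The targeted gene was checked first. IRF8 had 36891, 15192, 43015.5 and 22535 normalized counts in control libraries 1 to 4 and 6377, 2401, 12903 and 7819.7 in IRF8 KO libraries 1 to 4, so the groups did not overlap and RNA of the gene was present in all knockout libraries. The paper reports that its knockout clones had no IRF8 protein by Western blot and lost IRF8 binding in ChIP experiments. The RNA level is therefore not a measure of remaining protein. Like the protein, the IRF8 RNA was lower in the knockout. IRF8 RNA fell by 2.11 on the log2 scale (standard error 0.51, limma adjusted p = 0.0222), and the adjusted p rose to 0.0586, 0.0576 and 0.0529 when control replicate 1, control replicate 3 or IRF8 KO replicate 1 was left out.

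Among the knockout libraries, replicate 2 stood apart in the genes described here. It had the highest value of the 4 IRF8 KO libraries in 10 of 10 genes, which holds for 27.5% of all tested genes, while its IRF8 level was the lowest of the 4, at 8.16% of the control mean. Control replicate 2 was also the lowest control for IRF8. Against the control of the same number, the log2 difference of IRF8 was -2.66 in replicate 2. It was -2.53, -1.74 and -1.53 in replicates 1, 3 and 4. Over the 1709 tested genes whose groups do not overlap and are lower in IRF8 KO, replicate 2 was the highest knockout library in 43.6%. Replicate 1 had the lowest value of the 4 in 8 of the 10 genes. The share of all tested genes with this pattern was not computed, so the count is not read as particular to these genes. Together the 10 genes made up 0.0796% to 0.107% of the reads in the control libraries, and 0.0109%, 0.0509%, 0.0152% and 0.0179% of those of IRF8 KO libraries 1 to 4. Values without IRF8 KO replicate 2 are therefore given beside the test of each of the 10 genes. The RNA came from bulk cells, in which fewer cells carrying an RNA and less RNA per cell cannot be told apart.

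Of the 10 genes, 8 were called lower in IRF8 KO and 0 higher, where 9.56% of all tested genes were called lower and 8.65% higher. None of the 10 was higher at an unadjusted p below 0.05 either. The same number, 8, passed the thresholds of the study, which are a p of less than 0.01 without adjustment together with a 2-fold or larger difference, against 6.12% of all tested genes in that direction and 4.78% in the other. The groups did not overlap in 8 genes, all lower in IRF8 KO, where 13.0% of tested genes behaved so, and the same number were lower in each of the 4 pairs of libraries with the same number, where this held for 23.8%. The median log2 fold change of the 10 genes was -2.36, beside -0.000937 for all tested genes. On the recovered reads, edgeR's quasi-likelihood test called 5 of the 10 lower (9.32% of all tested genes) and DESeq2 called 9 (13.1%). Without IRF8 KO replicate 2, limma called 9 (9.86%), as it did without both libraries numbered 2 (8.06%), and it called 5 when IRF8 KO replicate 3 was left out (7.95%). The fold changes from counts were smaller than those from log2 values, in which low libraries weigh more. edgeR gave -3.39 for HLA-DRA, -2.91 for HLA-DRB1, -4.85 for HLA-DPA1, -4.16 for HLA-DPB1 and -2.06 for CIITA.

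**Figure D1:**
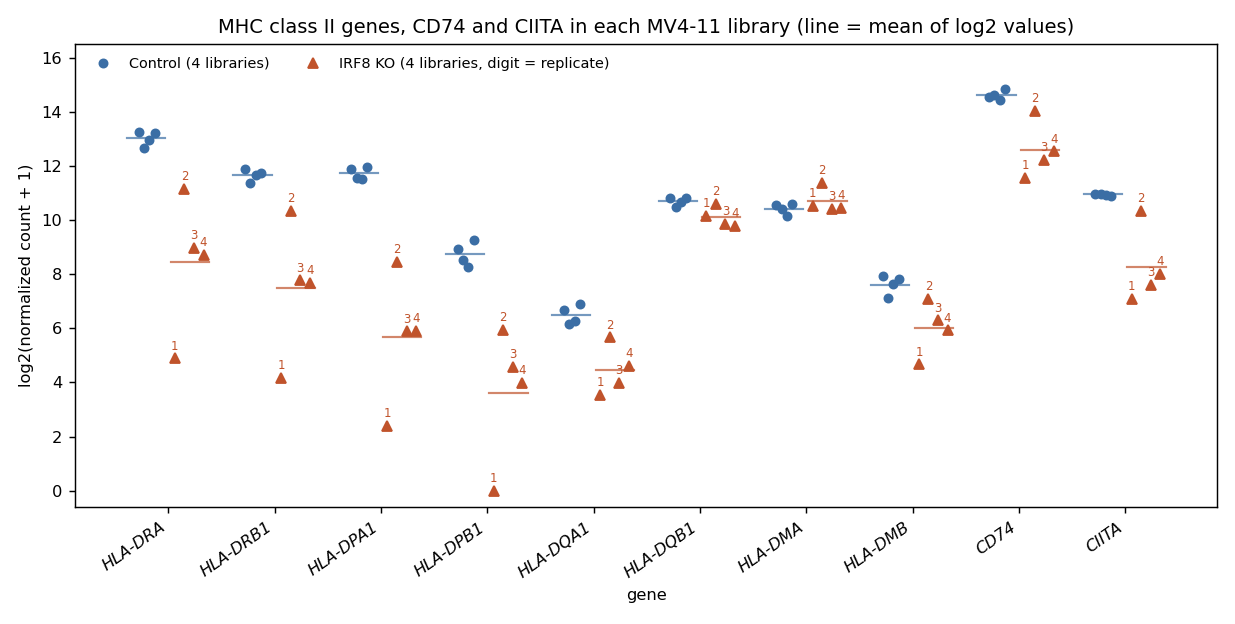
Level of each gene in each library, as log2(normalized count + 1) on the vertical axis, with circles for the 4 control libraries, triangles numbered by replicate for the 4 IRF8 KO libraries and a line at the mean of the log2 values of each group. IRF8 KO replicate 2 is the highest triangle for every class II gene, CD74 and CIITA, and the groups overlap only for HLA-DQB1 and HLA-DMA.

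CIITA, the co-activator on which class II transcription depends, had the most even level of the 10 genes among the control libraries, with 2013, 2009, 1962 and 1889 normalized counts. In the IRF8 KO libraries the values were 135, 1297, 195 and 259. All knockout values lay under all control values, but replicate 2 kept 65.9% of the control mean while the other 3 libraries had between 6.88% and 13.1%. The mean went from 1968 ± 57.7 to 472 ± 553, or 24.0% of the control. CIITA fell by 2.68 on the log2 scale (standard error 0.60, limma adjusted p = 0.0158), and the change was -3.37 without IRF8 KO replicate 2 (limma adjusted p = 0.000132). The call was lost without IRF8 KO replicate 3 (limma adjusted p = 0.0502) and with edgeR (adjusted p = 0.0642). CIITA is known to be transcribed from several alternative promoters, which a count per gene does not separate.

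HLA-DRA encodes the alpha chain of HLA-DR, which pairs with all DR beta chains and hardly varies between people. Control libraries 1 to 4 held 9849.8, 6464, 7869 and 9588 normalized counts and IRF8 KO libraries 1 to 4 held 28.8, 2262, 504 and 422. The lowest knockout library, replicate 1, rests on 27 reads, and the highest, replicate 2, stayed under the lowest control. With a mean of 8443 ± 1585 in the control and 804 ± 994 in the knockout, 9.53% of the level remained. HLA-DRA fell by 4.59 on the log2 scale (standard error 1.08, limma adjusted p = 0.0197). The change was -5.49 without IRF8 KO replicate 2 and -3.41 without IRF8 KO replicate 1, and the gene stayed called in both fits.

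HLA-DRB1, the main gene of the DR beta chain, followed the same order of libraries. It had 3793, 2624, 3259 and 3445 normalized counts in the control and 17.1, 1302, 217 and 205 in the knockout, so the groups did not overlap. The means were 3280.3 ± 490.4 and 435 ± 585, and HLA-DRB1 fell by 4.17 on the log2 scale (standard error 1.06, limma adjusted p = 0.0259). HLA-DRB1 was less stable in its call than HLA-DRA. The call was lost with edgeR (adjusted p = 0.0669) and in limma when control replicate 1, 3 or 4 or IRF8 KO replicate 3 or 4 was left out, with adjusted p-values up to 0.0607, and it held without IRF8 KO replicate 2 (-5.13, limma adjusted p = 0.00473) and without IRF8 KO replicate 1 (-3.07). HLA-DRB1 is highly polymorphic and has near-identical copies, so that reads can be split between them or lost where the alleles of MV4-11 differ from the reference, and its level is uncertain for this reason.

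HLA-DPA1, the alpha chain of HLA-DP, had the largest fold change of the set. It had 3800.3, 3030.2, 2959.6 and 3991 normalized counts in the control and 4.26, 349.8, 58.2 and 59.0 in the knockout. No knockout library exceeded 10.2% of the control mean, and replicate 1 had 0.124% of it. HLA-DPA1 fell by 6.08 on the log2 scale (standard error 1.04, limma adjusted p = 0.00465), from a mean of 3445 ± 527 to 118 ± 157, or 3.42% of the control. It was called under each of the alternatives tried, including edgeR (adjusted p = 0.00869), with changes between -7.01 without IRF8 KO replicate 2 and -4.99 without IRF8 KO replicate 1 when single libraries were left out.

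HLA-DPB1, the beta chain of HLA-DP, had 486, 367, 308 and 611 normalized counts in the control and 0, 60.2, 23.0 and 14.8 in the knockout. In IRF8 KO replicate 1 no read was counted, where 0 reads allow up to 0.721% of the control mean (3 reads, counting error only). The groups did not overlap, the means were 443 ± 134 and 24.5 ± 25.6, and HLA-DPB1 fell by 5.12 on the log2 scale (standard error 1.09, limma adjusted p = 0.0121). The change was -5.89 without IRF8 KO replicate 2 and -3.91 without IRF8 KO replicate 1. In the RefSeq annotation HLA-DPA1 and HLA-DPB1 overlap on opposite strands. The libraries were stranded, but whether the counting used strand is not stated in the sources used here, so the share of reads between these genes is uncertain.

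The chains of HLA-DQ did not change alike. HLA-DQA1, the alpha chain, was counted at a low level, with 101, 70.7, 75.2 and 119.6 normalized counts in the control and 10.7, 49.7, 14.9 and 23.6 in the knockout. The groups did not overlap, and HLA-DQA1 fell by 2.04 on the log2 scale (standard error 0.46, limma adjusted p = 0.0153), from 91.5 ± 22.9 to 24.7 ± 17.5, with -2.45 without IRF8 KO replicate 2. HLA-DQB1, the beta chain, had 1798, 1435, 1630.2 and 1813 normalized counts in the control and 1139, 1544, 930.3 and 877 in the knockout. Here IRF8 KO replicate 2 lay above control replicate 2, so the groups overlapped. The log2 difference of HLA-DQB1 was -0.60 (standard error 0.19, limma adjusted p = 0.0598, exact permutation p = 0.0571), with means of 1669 ± 177 and 1123 ± 303. Without IRF8 KO replicate 2 the difference was -0.77 and passed the test (limma adjusted p = 0.0114). Both HLA-DQ genes are polymorphic, and reads of alleles that differ from the reference may be missing from their counts.

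HLA-DM, the peptide exchange factor, also had chains that differed. HLA-DMB, the beta chain, had 242, 136, 195 and 222 normalized counts in the control and 24.5, 136, 77.2 and 60.01 in the knockout. The lowest control and the highest knockout library, both numbered 2, were nearly level, at 136.3 and 135.7. HLA-DMB fell by 1.61 on the log2 scale (standard error 0.47, limma adjusted p = 0.0461), from 199 ± 46.0 to 74.4 ± 46.4. The call lay close to the threshold. It was lost with edgeR (adjusted p = 0.0665), and in limma without the trend (0.0515), with a mean of at least 100 (0.0535) and without any 1 of the 4 control libraries or of IRF8 KO replicates 1, 3 and 4 (adjusted p up to 0.108), whereas it held without IRF8 KO replicate 2 (-1.98, limma adjusted p = 0.0153).

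HLA-DMA, the alpha chain of HLA-DM, was the only gene of the set with a higher mean in the knockout. The control libraries had 1508, 1363, 1124 and 1537 normalized counts and the knockout libraries 1459.9, 2657, 1366 and 1395. Replicate 2 was the only knockout library above the control range. The log2 difference of HLA-DMA was 0.26 (standard error 0.23, limma adjusted p = 0.485, exact permutation p = 0.486), and without IRF8 KO replicate 2 it was 0.04 (limma adjusted p = 0.905). The level of HLA-DMA in IRF8 KO replicates 1, 3 and 4 was 106%, 98.8% and 101% of the control mean.

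CD74, the invariant chain and chaperone of class II assembly, had 23694, 24911, 22302 and 29519 normalized counts in the control libraries. In the knockout libraries it had 3033, 16645, 4756 and 5911. The groups did not overlap, and replicate 2 kept 66.3% of the control mean, close to the 65.9% it kept of CIITA. In replicates 1, 3 and 4 the levels were further apart, at 12.1%, 18.9% and 23.5% for CD74 and 6.88%, 9.91% and 13.1% for CIITA. CD74 fell by 2.02 on the log2 scale (standard error 0.44, limma adjusted p = 0.0142), from 25106.5 ± 3129 to 7586 ± 6154, or 30.2% of the control. The change was -2.50 without IRF8 KO replicate 2 (limma adjusted p = 0.000503), and CD74 was called under every alternative tried.

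**Figure D2:**
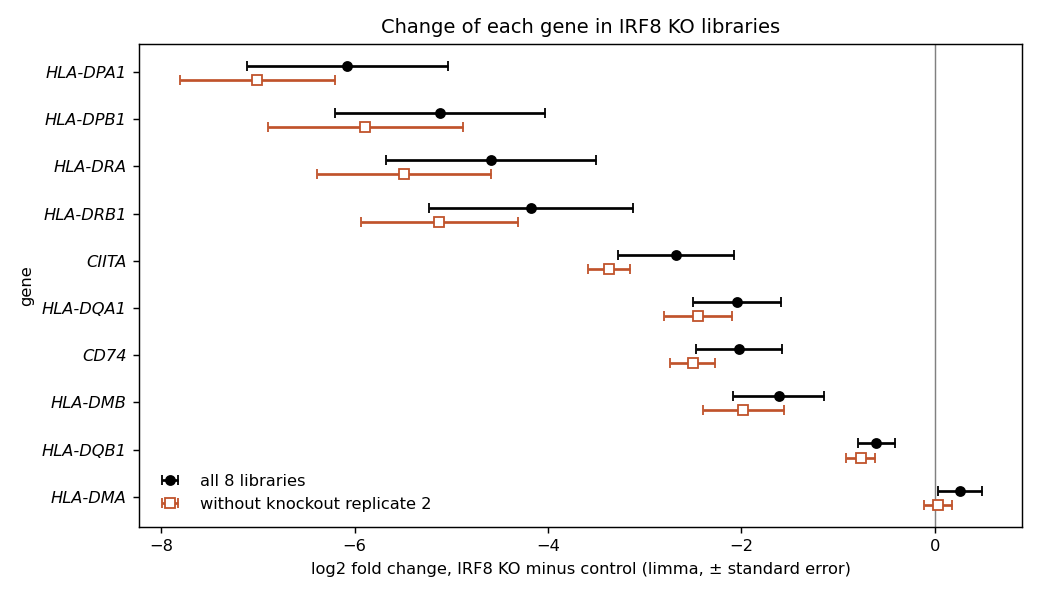
Log2 fold change of each gene, IRF8 KO minus control, on the horizontal axis with its standard error from limma, for all 8 libraries (black circles) and without IRF8 KO replicate 2 (open squares). The values run from -6.08 for HLA-DPA1 to 0.26 for HLA-DMA, and the 9 genes with a negative value lie further from 0 without replicate 2.

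The order of the fold changes, from the largest fall, was HLA-DPA1, HLA-DPB1, HLA-DRA, HLA-DRB1, CIITA, HLA-DQA1, CD74, HLA-DMB, HLA-DQB1 and HLA-DMA. Neighbours in this order were compared by the log2 ratio of both genes within each library, with a pseudocount of 1, in 9 exact two-sided permutation tests adjusted over the 9. Since the order was taken from these data, the sign of a step was partly fixed in advance, and the comparisons only describe whether the ratios separate. The ratio of HLA-DQA1 to CD74 differed between the groups by -0.02 (exact permutation p = 0.886), that of CD74 to HLA-DMB by -0.41 (p = 0.257), that of CIITA to HLA-DQA1 by -0.63 (p = 0.114) and that of HLA-DPB1 to HLA-DRA by -0.53 (p = 0.0571). In these 4 steps the ratios overlapped between the groups. In the other 5 steps the ratios did not overlap between the groups, with an exact permutation p of 0.0286, the smallest unadjusted value these tests allow. Adjusted over the 9 tests, the p of these 5 steps was 0.0514, so no step passed. The ratios of the DR chains and of the DP chains are among these 5. They are tested again below within a smaller set of ratios, where the adjustment is milder.

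The ratio of 2 genes within a library does not depend on its size factor, and 6 such ratios were compared between the groups without a pseudocount. They are not read as a ratio of levels, since the lengths of the genes differ, but the difference between the groups shows whether both genes changed alike. For the DR chains, the log2 ratio of HLA-DRA to HLA-DRB1 was 1.36 ± 0.09 in the control and 0.95 ± 0.22 in the knockout, a difference of -0.40. For the DP chains, HLA-DPA1 to HLA-DPB1 went from 2.996 ± 0.229 to 1.96 ± 0.60 over the 3 knockout libraries in which HLA-DPB1 was counted, a difference of -1.04. By these counts the alpha chain lost more than the beta chain in both, for HLA-DP in the libraries that have a ratio. In IRF8 KO replicate 1, HLA-DPA1 rested on 4 reads and HLA-DPB1 had no read, too few to rank the chains. The share of reads between the DP genes and the level of HLA-DRB1 are uncertain, as said above, and so are these differences. For HLA-DQ, the ratio of HLA-DQA1 to HLA-DQB1 went from -4.22 ± 0.23 to -5.72 ± 0.80, a difference of -1.50, and in HLA-DM the beta chain lost more, with HLA-DMA to HLA-DMB going from 2.82 ± 0.35 to 4.72 ± 0.80, a difference of 1.90. CD74 lost less than HLA-DRA (1.58 ± 0.28 to 4.16 ± 1.75, a difference of 2.58), and HLA-DRA lost more than CIITA (2.08 ± 0.30 to 0.16 ± 1.62, a difference of -1.92). In each of the 6 ratios the groups did not overlap (exact two-sided permutation p = 0.0286, adjusted over the 6 p = 0.0286). With any 1 control library left out the adjusted p rose to between 0.0686 and 0.1. Without IRF8 KO replicate 2, 3 or 4 the ratio of the DP chains had an adjusted p of 0.0667. For the DP chains, 0.1 and 0.0667 are the smallest values the tests allow on the libraries left, since replicate 1 has no ratio. The DP ratio could therefore not have passed in these fits, which say nothing about its stability.

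**Figure D3:**
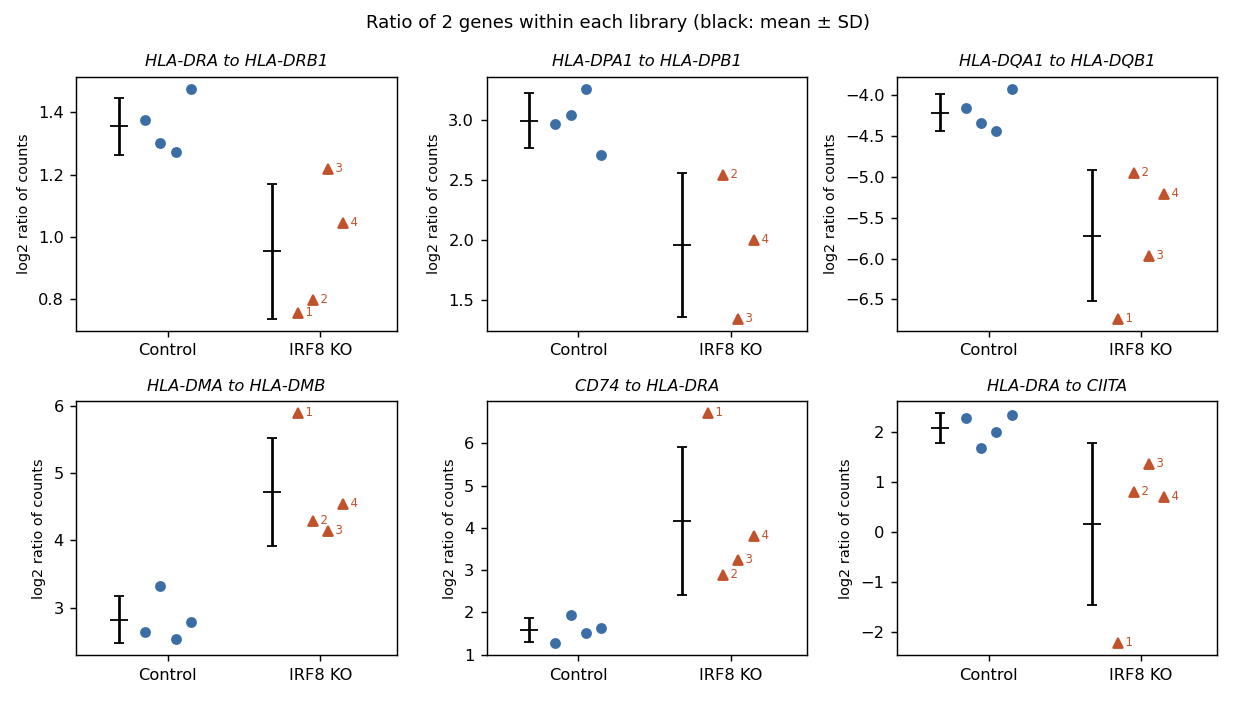
Log2 ratio of the normalized counts of 2 genes within each library, for 6 pairs, with 1 point per library, circles for control and triangles for IRF8 KO, and the mean with its standard deviation in black. In each panel the control and the IRF8 KO points do not overlap, and IRF8 KO replicate 1 is missing from the panel of HLA-DPA1 to HLA-DPB1 because HLA-DPB1 had no read there.

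The libraries differed in how far each gene was lowered, and the order of the genes was partly shared between them. In IRF8 KO replicate 2, HLA-DPA1 was at 10.2%, HLA-DPB1 at 13.6%, HLA-DRA at 26.8% and HLA-DRB1 at 39.7% of the control mean, while HLA-DQA1, CIITA, CD74 and HLA-DMB were at 54.3%, 65.9%, 66.3% and 68.2%. In IRF8 KO replicate 1 the DR and DP chains were all under 1%, with HLA-DRB1 at 0.520% as the highest, where CIITA was at 6.88%, HLA-DQA1 at 11.6%, CD74 at 12.1% and HLA-DMB at 12.3%. The DR and DP chains were thus further below the control than CIITA in each of the 4 knockout libraries. Replicates 3 and 4 lay close to each other, with HLA-DRA at 5.97% and 4.999%, HLA-DRB1 at 6.61% and 6.24% and HLA-DPA1 at 1.69% and 1.71%.

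Other class II genes were looked at as a list of 7. HLA-DRB3 and HLA-DRB4 have no row in the table, and HLA-DQA2 and HLA-DOA were under the filter on low values, which left 3 tested genes. Of these, 1 was called, and it was lower, beside 18.2% of all tested genes called in either direction, with a list median of -0.68. HLA-DRB5, a second DR beta gene that is a near copy of HLA-DRB1 and shares reads with it, had 1166, 799.6, 977 and 1069.6 normalized counts in the control and 8.53, 423, 65.0 and 54.1 in the knockout. HLA-DRB5 fell by 4.01 on the log2 scale (standard error 0.94, limma adjusted p = 0.0192), and its change was -4.93 without IRF8 KO replicate 2 and -3.11 without IRF8 KO replicate 1. With edgeR the gene was not called (adjusted p = 0.0619), nor was it in limma without IRF8 KO replicate 4 (adjusted p = 0.0513) or replicate 3 (adjusted p = 0.05003). HLA-DOB, the beta chain of the HLA-DM inhibitor HLA-DO, had a mean of 93.3 ± 17.8 in the control and 117 ± 30.9 in the knockout, a log2 difference of 0.30 (limma adjusted p = 0.494). HLA-DQB2, a further DQ beta gene, had 87.0 ± 17.5 and 54.2 ± 13.5 normalized counts in groups that did not overlap, a log2 difference of -0.68 (limma adjusted p = 0.110).

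The factors that hold CIITA at the X and Y boxes were taken as a list of 7 genes, RFX5, RFXAP and RFXANK of the RFX complex, CREB1, and NFYA, NFYB and NFYC of NF-Y. All 7 were tested and limma called 0 of them, where 18.2% of all tested genes were called in either direction. Of the 7, 1 had an unadjusted p below 0.05, and the list median was -0.12. edgeR (18.1% of all tested genes called) and DESeq2 (25.9%) each called 1 gene, which was NFYA in both (adjusted p = 0.0459 and 0.0165). NFYA, the gene of the highest mean in the list, had 9187 ± 2359 normalized counts in the control and 5894 ± 832 in the knockout, and its groups overlapped. NFYA differed by -0.61 on the log2 scale and missed the threshold (limma adjusted p = 0.0650). With a block for the replicate number, 2 genes were called, NFYA as lower (limma adjusted p = 0.0133) and RFXANK as higher (0.0417), where the same fit called 28.7% of all tested genes. RFX5, the large subunit that contacts the X box, was at 5461 ± 333 and 5011 ± 359 normalized counts (limma adjusted p = 0.471).

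Genes known to act on CIITA transcription formed a list of 16, from the interferon gamma receptor and its JAK kinases to IRF factors, SPI1 and chromatin co-factors. All were tested and 2 were called, both lower, where 18.2% of all tested genes were called, and the list median was 0.11. These 2 were IRF8, which was the targeted gene, and IRF4, the closest relative of IRF8. IRF4 had 513, 719, 507 and 489 normalized counts in the control and 57.5, 345, 192 and 228 in the knockout. The groups did not overlap, and as in 8 of the 10 class II set genes replicate 2 was the highest knockout library and replicate 1 the lowest. IRF4 fell by 1.67 on the log2 scale (standard error 0.49, limma adjusted p = 0.0446) and changed by -2.003 without IRF8 KO replicate 2, but the call was lost with edgeR (adjusted p = 0.0599) and without any 1 of the control libraries or of IRF8 KO replicates 3 and 4 (limma adjusted p up to 0.0966). SMARCA4, a chromatin remodeling ATPase with the highest mean in the list, was at 25341 ± 4453 and 26789.8 ± 1389.9 (limma adjusted p = 0.706). When the replicate number entered as a block, 6 genes were called, against 28.7% of all tested genes, with CREBBP (limma adjusted p = 0.0150) and EP300 (0.0483) lower and SOCS1 (0.00405) and IRF1 (0.0478) higher in addition.

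A list of 15 genes for the processing of antigens and of CD74 and for the turnover of class II molecules held calls in the other direction. Of the 14 that were tested, 6 were called higher (8.65% of all tested genes) and 0 lower, with 0 lower also at an unadjusted p below 0.05 and with edgeR and DESeq2, and the list median was 0.65. The genes of MARCHF1 and MARCHF8 are listed under their older symbols, and IFI30 was listed at 0 in all 8 libraries. CTSL, the lysosomal protease cathepsin L, was close to absent in the control with 5.63, 2.59, 4.30 and 8.47 normalized counts and had 267, 74.6, 398 and 338 in the knockout. It rose by 5.28 on the log2 scale (standard error 0.56, limma adjusted p = 0.000421), and replicate 2 was the lowest of the knockout libraries.

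CTSS, cathepsin S, which makes the last cuts in CD74, rose by 0.68 on the log2 scale (standard error 0.12, limma adjusted p = 0.00497), from 3767 ± 307 to 6063 ± 656 normalized counts. CTSD, CTSC and CTSB, the genes of cathepsins D, C and B, rose by 1.09 (standard error 0.30, limma adjusted p = 0.0365), 0.91 (0.13, 0.00216) and 0.70 (0.15, 0.0143). Of these, CTSB had the highest mean of the list, with 22507 ± 2569 in the control and 36863 ± 6927 in the knockout. CD63, a tetraspanin of the compartments in which class II molecules are loaded, rose by 0.78 (standard error 0.13, limma adjusted p = 0.00352). CTSS is outside the rule for named genes and was picked with its value known. For CTSD the call was lost without control replicate 1 or 3 or any 1 of the knockout libraries (limma adjusted p up to 0.0920), and the other 5 kept it with each library left out in turn.

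Of 11 genes for co-stimulatory and adhesion ligands of T cells, 9 were tested, and 1 was called, which was lower (9.56% of all tested genes), with a list median of -0.15. ICOSLG, the ligand of ICOS on T cells and the gene of the highest mean in the list, had 2737, 3419, 3334 and 3800.1 normalized counts in the control and 1420.5, 2065, 1029 and 1116 in the knockout. The groups did not overlap, and replicate 2 was again the highest of the knockout libraries. ICOSLG fell by 1.28 on the log2 scale (standard error 0.22, limma adjusted p = 0.00491). With the block for the replicate number, 3 genes were called, all lower (14.6% of all tested genes), with ICAM1 (limma adjusted p = 0.000452) and CD70 (0.0178) besides ICOSLG.

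Of 9 genes for receptors, ligands and partners of CD74 and of class II molecules, 8 were tested and 1 was called, as higher (8.65% of all tested genes), with a list median of 0.10. CD4, the co-receptor that binds class II molecules on T cells and is also made by myeloid cells, had 3614, 4550.0, 3341 and 5361 normalized counts in the control and 24417, 23160.4, 18566 and 25860.3 in the knockout. It rose by 2.46 on the log2 scale (standard error 0.18, limma adjusted p = 7.56e-05), and all knockout libraries exceeded all control libraries. MIF, a cytokine that binds CD74 and the gene of the highest mean in the list, was at 12026 ± 1942 and 15421 ± 3485 (log2 difference 0.35, limma adjusted p = 0.23). With that block, CD37 was called as well, as higher (limma adjusted p = 0.0448), which made 2 genes, where the same fit called 28.7% of all tested genes.

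**Figure D4:**
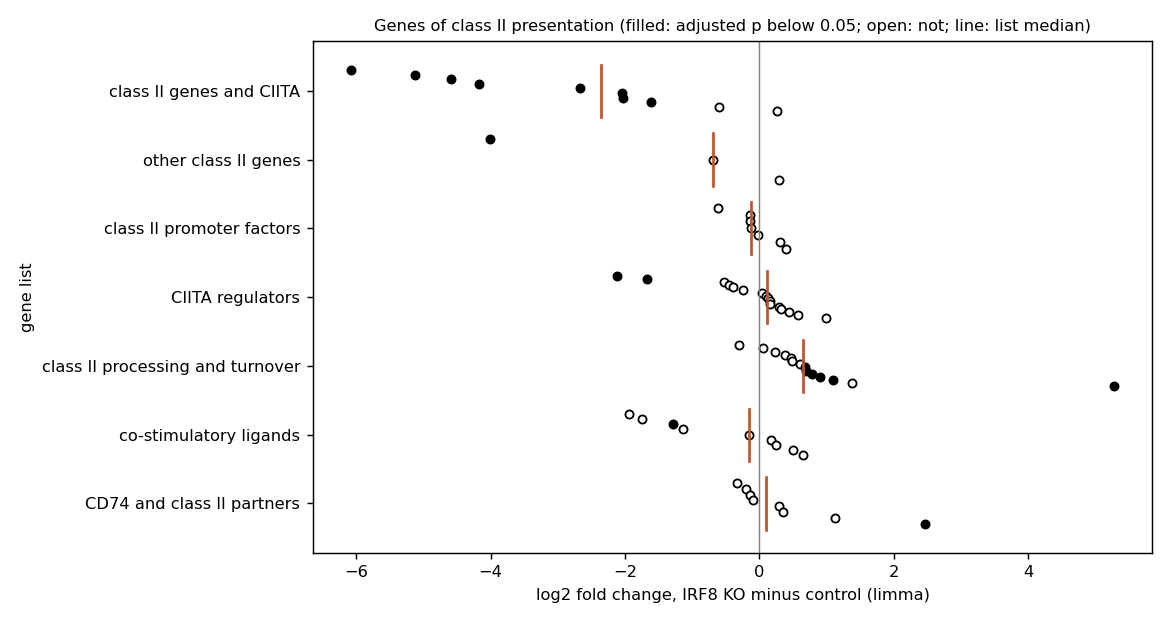
Log2 fold change, IRF8 KO minus control, of every tested gene of the class II set and of 6 lists of class II presentation, with 1 point per gene, filled where limma's adjusted p is below 0.05 and open where it is not, and a line at the median of each list. The class II set lies to the left with 8 of 10 points filled, the processing and turnover list lies to the right with 6 of 14 filled, and the promoter factors have none filled.

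The cells were checked with lists of marker genes. Of 10 myeloid markers all 10 were tested and 4 were called, all higher (8.65% of all tested genes), namely ITGAM, FCGR1A, MPO and ELANE. With the block for the replicate number, 7 were called (28.7% of all tested genes), and 1 of them, CD33, was lower (limma adjusted p = 0.0487). The summed level of the 10 markers was between 31535 and 47596 normalized counts in the control libraries and between 84112 and 352519 in the knockout libraries. LYZ had the highest mean of the list, ranging from 1734 to 14757 in the control and from 13767 to 248604 in the knockout. IRF8 KO replicate 2 had the lowest myeloid sum of the 4 knockout libraries. Dendritic cells are rich in class II molecules, and of 10 dendritic cell markers 5 were tested and 4 were called, all lower (9.56% of all tested genes). Their sum ranged from 2733 to 3994 in the control and from 379 to 1030 in the knockout, where replicate 2 had 755, within the range of the others. CLEC10A, the highest of them, fell by 6.10 on the log2 scale (standard error 0.53, limma adjusted p = 0.000201), and XCR1 was at 0 in all 8 libraries. CLEC9A was under the filter on low values and went the other way. It was at 0 in each control library and at 3.20, 4.78, 8.13 and 15.7 in IRF8 KO libraries 1 to 4. The part of these markers in the change of the class II genes was not tested.

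Markers of other cell types were near 0 in part. Beside the calls among them, 9.56% of all tested genes were called lower. Of 8 B cell markers 3 were below 10 normalized counts in every library, MS4A1 was at 0 in all, and 1 of 3 tested genes was called, as lower. Their sum was between 481 and 978 in the control and between 437 and 1856 in the knockout, with the highest value in replicate 2 and with CD79B as the highest gene. Of 8 T and NK cell markers 5 were below 10 in every library and 1 of 2 tested genes was called, NCAM1, which was lower (-2.24, limma adjusted p = 0.0385) though its groups overlapped. Their sum was between 7878 and 21599 in the control and between 3052 and 6375 in the knockout, nearly all of it from NCAM1 and NKG7. Of 7 stromal and epithelial markers 3 were below 10 in every library and 2 of 4 tested were called lower, with KRT8 as the highest, and the sums were 2009 to 4101 in the control and 403 to 2043 in the knockout. The part of these sums in the class II values was not tested.

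To find the genes with the log2 profile nearest to that of CIITA, the root mean square distance between log2 profiles over the 8 libraries, each centred on its own mean, was computed for the 13109 other tested genes. The profiles were not scaled, so the distance also depends on the size of a change. HLA-DPA1, with its larger fall, was the 11096th from CIITA, and the uncalled HLA-DMA was the 5730th. The libraries share the split into 2 groups and the high value of replicate 2, and the distance is given as a description. The nearest gene to CIITA was IGLL1 (distance 0.245), and SEMA7A (0.409) and DLC1 (0.431) were also near. CD74 was the fifth (0.437), HEG1 the sixth (0.452) and HLA-DQA1 the 17th (0.531). IGLL1 had 1764, 2413, 1786 and 2028 normalized counts in the control and 209.9, 1384, 245 and 275 in the knockout, with replicate 2 high as for CIITA.

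The profile of HLA-DRA was nearest to that of HLA-DRB1 (distance 0.255), HLA-DPB1 (0.385), HLA-DRB5 (0.476) and HLA-DPA1 (0.765), in that order. The 5 nearest genes outside the lists came next and were OAS2 (0.771), KRT86 (0.783), KRT81 (0.878), SLC12A3 (0.943) and SNAI1 (0.949). CIITA was the 78th (1.38) and CD74 the 210th (1.67), whereas CD74 and HLA-DQA1 were the nearest of the set to CIITA. KRT81 and KRT86 are near copies that can share reads.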

How the data were processed

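RNA-Seq libraries of MV4-11 control (n = 4) and IRF8 KO (n = 4) cells were analysed, and 2 IRF8 ChIP-Seq samples were not analysed here. According to the methods of the study, the authors aligned the reads to GENCODE v32 with RNA-Star 2.7.2b, counted reads per gene with featureCounts 2.0.1 and normalized with DESeq2. The submitters' processing notes list the builds hg19 and hg38 without a role. The deposited signal holds the authors' counts per gene scaled by a size factor, with 19590 genes in the table and 2197 of them without a read in any library. The control columns are named as wild type. They were assumed to be the control libraries of the same number, since no other RNA-Seq group exists beside IRF8 KO. Whole reads were recovered for 100% of values within 0.01 reads. The libraries held 48762519 to 65519047 reads in the control and 39560072 to 54048461 in the knockout, so counting error is large only for values of a few reads. A deposited table of the authors' own comparison (means, log2 fold changes, standard errors, Wald statistics and p-values) was not used.

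limma 3.58.1 in R 4.3.3 was run on log2(normalized count + 1) with a trended, robust prior variance for the 13110 genes averaging 10 or more, with Benjamini-Hochberg adjustment. Single values were compared with exact two-sided permutation tests. The model fits were tested on simulated data. Alternatives were pseudocounts of 0.5 and 5, no filter or a mean of at least 100, upper quartile and quantile scaling, library weights, no trend, edgeR 4.0.16 and DESeq2 1.42.0 on recovered reads, a block for the replicate number, removal of chromosomes 20 and Y, and each library left out. Leaving out both libraries numbered 2, with and without the block, the neighbour ratios and the looser X box letters were added after seeing the data. Neither the labels nor the methods say what a shared replicate number marks. Deviations from the group means of same-numbered libraries correlated across genes at 0.37, 0.48, 0.45 and 0.50, so the numbers were taken to pair the libraries. The correlations across numbers were as high between 1 and 3 (0.41 and 0.47) and between 2 and 4 (0.41 and 0.40), so these data do not separate pairing by number from a split into these 2 sets of libraries.

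The 10 genes, the gene lists and the marker lists were chosen with earlier results of these data known. Named were all 10 genes, IRF8, up to 4 called genes of each pathway list by absolute log2 fold change, the gene of highest mean of each list, and the 5 genes outside the lists with the profile nearest to CIITA and to HLA-DRA, of which 1 is not reported here. Other genes named, such as RFX5, CTSS, HLA-DOB, HLA-DQB2 and those called only with the block, were chosen after their values were seen. Promoter sequences are from RefSeq, assembly GRCh38.p14. No set test was run.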

Additional observations from a re-analysis of the deposited data

Results flagged for a closer look

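In each group of 4 libraries, the gap of the highest or lowest library to its neighbour was divided by the range of the group. This was done on normalized counts without logs, and the quotient was compared with Dixon's 95% limit for 4 samples. Of 24 groups, from the 10 class II genes and CIITA, IRF8 and HLA-DRB5, 5 exceeded it, and chance alone flags about 1 in 20 groups. All 5 were IRF8 KO groups in which replicate 2 was the highest library, and since the genes were measured in the same library they are not independent. The quotient was 0.928 for HLA-DMA, 0.894 for CIITA, 0.864 for HLA-DRB5, 0.845 for HLA-DRB1 and 0.842 for HLA-DPA1. No quotient is given for the log2 scale, on which low libraries weigh more, so the flags hold for the scale of counts only. HLA-DRB5 shares reads with HLA-DRB1. The part of a clone, of the culture or of the library preparation in the values of replicate 2 was not tested.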

How the results depend on the processing

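The log2 fold changes of the 10 genes and the 6 ratios kept their direction under the alternatives, whereas the uncalled difference of SMARCA4 changed sign without control replicate 2 (-0.01). With each library left out in turn, limma called between 1668 and 2459 genes (1283 to 1543 at the thresholds of the study), 5 to 9 of the 10 class II genes (7 to 8 at those thresholds), 0 to 1 other class II genes, 0 to 1 promoter factors, 0 to 2 CIITA regulators, 5 to 7 processing genes, 1 to 2 co-stimulatory ligands and 1 partner gene (from 1 to 1). edgeR called 5 of the 10 genes by either rule, 0 other class II genes, 1 promoter factor and 1 CIITA regulator. DESeq2 called 1 promoter factor, 4 CIITA regulators and 3 co-stimulatory ligands. Upper quartile scaling, quantile normalization and library weights each called 1 promoter factor, limma without the trend 1 CIITA regulator, and no filter on low values 2 other class II genes. With the replicate number as a block, 3769 genes were called, 2 promoter factors, 6 CIITA regulators, 3 co-stimulatory ligands and 2 partner genes, and the block changed no call of the 10 genes at an adjusted p below 0.05, while 7 passed the thresholds of the study, since HLA-DMB no longer did. A mean of at least 100 called 6 of the 10 genes and limma without the trend 7. The block without the libraries numbered 2 called 2, 5, 4 and 2 genes of these lists, and leaving out both libraries numbered 2 gave 2 co-stimulatory ligands. The cause of these changes was not tested.

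The log2 ratios ranged, with each library left out, from -0.49 to -0.34 for HLA-DRA to HLA-DRB1, -1.33 to -0.73 for HLA-DPA1 to HLA-DPB1, -1.76 to -1.16 for HLA-DQA1 to HLA-DQB1, 1.51 to 2.09 for HLA-DMA to HLA-DMB, 1.72 to 3.004 for CD74 to HLA-DRA and -2.32 to -1.12 for HLA-DRA to CIITA. In the paired form of the replicate block they were -0.40, -1.05 (3 pairs), -1.50, 1.90, 2.58 and -1.92. No ratio passed (adjusted p 0.15, and 0.25 for the DP chains). A sign-flip test of 4 pairs cannot go below 0.125 and one of 3 pairs cannot go below 0.25, so no ratio could have passed. A mean of at least 100 normalized counts removed HLA-DQA1. Depth limits only values of a few reads, such as those of HLA-DPA1 and HLA-DPB1 in IRF8 KO replicate 1.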
